A study of Mus musculus with 99 samples.

Results

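Cerebellum of 2-month-old mice without a working Grn gene was compared with cerebellum of wild-type mice of the same age, on 7 of the 99 arrays of a series on progranulin-deficient mice. The knockout (KO) group held 4 arrays, from 2 males and 2 females (replicates 2 to 5), and the wild-type (WT) group held 3 arrays, from 2 males and 1 female (replicates 1 to 3). The arrays were chosen by region, genotype and age. A further KO cerebellum array and a further WT cerebellum array of this age were left out because their region markers went against the label. Heterozygous (Het) cerebellum of the same age, 4 arrays from 3 males and 1 female, was in the fit as well. The mice received no treatment, each array was a separate animal per the labels, and RNA came from the whole region. The sources used here give neither how the Grn allele was made nor the strain background.

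Progranulin, the product of Grn, is a secreted protein that is also carried to the lysosome, where it is cut into granulins that act in lysosomal enzyme function. In the brain it is made by microglia and neurons. Loss of both copies in people causes a lysosomal storage disease, neuronal ceroid lipofuscinosis, and loss of 1 copy causes frontotemporal dementia. Aged mice without Grn are known for activated microglia, astrocyte gliosis and storage material in the brain. The cerebellum is made up mostly of granule neurons, with Purkinje cells as its output neurons and Bergmann glia as a specialised astrocyte.

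Median array intensity was 81.9 to 92.0 in the KO arrays and 82.1 to 91.2 in the WT arrays. The region check set cerebellum markers against forebrain markers within each array, on the log2 scale, with a median of 0.69 in cerebellum arrays of the series and -2.61 in cortex and hippocampus arrays. It gave 0.42 to 0.70 in KO, -0.03 to 0.69 in Het and 0.38 to 0.52 in WT. The Purkinje cell gene Pcp2 had log2 intensities of 12.48 to 12.84 in KO and 12.37 to 12.59 in WT, so both groups carried the markers of the labelled region. Of the arrays left out, the KO one stood at -2.11 with Pcp2 at 6.87, and the WT one at -0.49 with Pcp2 at 11.88. They lay 0.85 and 0.36 of the way from the cerebellum median to that of cortex and hippocampus. A Het array with Pcp2 at 6.75 failed the check too. Of the later arrays, KO replicate 2 of 9 months is labelled male but had Xist, the transcript of the inactive X chromosome of females, at 9.08 and the Y-linked Eif2s3y at 6.85. The other KO male of that age had 7.23 and 9.30, so results at 9 months are given with and without this array. The number of arrays limited the precision of every comparison. Each p-value set a difference against the spread between arrays that the fit left over.

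Grn separated the 3 genotypes on the quantile-normalized scale. Its log2 intensity was 7.0, 7.03, 7.0 and 6.95 in the KO arrays, 8.70, 8.69, 8.78 and 8.48 in the Het arrays, and 9.43, 9.51 and 9.58 in the WT arrays. No value overlapped between any of the genotypes on this scale, and the Het arrays lay between KO and WT. In untransformed intensity, Het replicate 2 at 211.1 lay above WT replicate 1 at 185.8. Grn fell by 2.53 ± 0.10 on the log2 scale in KO against WT (SE, limma adjusted p = 1.11e-08). The KO minus Het difference was -1.69 ± 0.10 (adjusted p = 1.14e-06) and the Het minus WT difference was -0.84 ± 0.10 (adjusted p = 0.0156). These contrasts share arrays. The call of Grn in Het minus WT was lost without any 1 of the 3 WT arrays (-0.87 to -0.82, adjusted p = 0.0671 to 0.0956). It was also lost with median scaling, slide as a fixed block or the left-out arrays added (-0.81 to -0.64, adjusted p = 0.125 to 0.328). A replicate block ended the call as well (-0.79, limma adjusted p = 0.655).

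In fitted terms the Grn signal of KO was 17.4% of WT, and that of Het was 55.9% of WT. Its probe in KO was brighter than only 24.4 to 33.3% of all probes of the array, against 83.9 to 85.3% in WT, so the KO signal sat among the dim probes. The size of the fold depended on the scaling. Untransformed intensities averaged 79.9 ± 2.7 in KO and 243 ± 50.3 in WT (SD, n = 4 and 3), a ratio of 3.04, where the fit over quantile-normalized values gave 5.76. With median scaling the log2 difference was -1.58. In the 2 slides that held both genotypes it was -2.58 and -2.57.

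Across the array Grn was the 1 probe of 12848 tested that passed an adjusted p under 0.05, which is 0.00778% of the probes. With median scaling 15 probes passed. At an unadjusted p under 0.05 there were 482 probes, 224 of them higher and 258 lower in KO, or 3.75%. That count was 200 with median scaling and 629 without WT replicate 3. The median KO minus WT difference over all tested probes was 2e-04 on the log2 scale, and 90% of probes differed by less than 0.23 either way. The median standard error was 0.132. KO and WT arrays did not overlap for 573 of the 12848 tested probes, or 4.46%. That share stands beside every gene described below as without overlap. KO minus Het and Het minus WT also had 1 called probe each, 0.00778% of those tested, and it was Grn in both. Counting each gene once by its brightest tested probe, 313 of 9076 genes had an unadjusted p under 0.05, or 3.45%, with 150 higher and 163 lower in KO.

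**Figure D1:**
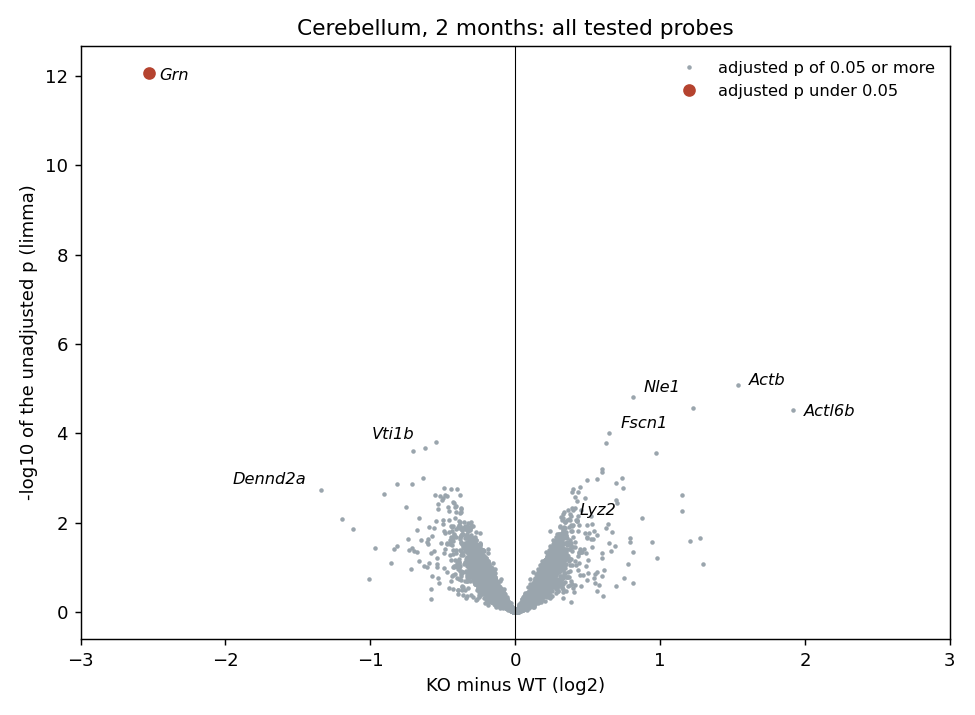
Each point is a tested probe of 2-month cerebellum, with the KO minus WT difference on the log2 scale along the horizontal axis and -log10 of the unadjusted limma p on the vertical axis. Grn stands alone at -2.53, and the named genes nearest to it in p are Actb at 1.54 and Nle1 at 0.81, which missed the adjusted threshold.

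The genes next to Grn in p are given as values, since none of them passed the adjusted threshold. The nearest was Actb, which encodes the cytoskeletal protein beta-actin. The named Actb probe read 12.09, 12.65, 12.65 and 12.71 in KO, 11.84, 11.62, 11.42 and 12.34 in Het, and 11.38, 10.60 and 10.98 in WT on the log2 scale. All KO arrays lay above all WT arrays, and KO replicate 2 was the lowest of the KO arrays. The KO minus WT difference was 1.54 ± 0.23 (limma adjusted p = 0.0522), and it passed the threshold in 10 of 22 alternative settings, with adjusted p between 0.000852 and 0.872. The other tested Actb probes, 4 in number, differed by -0.09 to 0.12, and none of them came near the named probe.

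Nle1, which encodes a WD-repeat protein of ribosome assembly, read 8.90, 8.96, 8.60 and 8.68 in KO, 8.41, 8.23, 8.18 and 8.22 in Het, and 7.94, 7.81 and 8.13 in WT. The 3 genotypes did not overlap. The KO minus WT difference was 0.81 ± 0.13 (limma adjusted p = 0.0654), and it was 0.77 and 0.87 within the slides that held both genotypes. In the fit over 33 arrays of 3 regions, the cerebellar difference of Nle1 was again 0.81 ± 0.13, with an adjusted p of 0.00485.

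Actl6b encodes a neuronal subunit of the SWI/SNF chromatin remodelling complex. It read 10.65, 10.80, 10.64 and 10.85 in KO, 10.14, 10.72, 10.13 and 10.53 in Het, and 8.10, 8.09 and 10.01 in WT. The WT arrays were split, with WT replicate 3 within 0.64 of the KO array on its slide and the other WT arrays far below. The difference was 1.92 ± 0.32 (limma adjusted p = 0.0785), and without WT replicate 3 it was 2.66 (adjusted p = 2.02e-05). Further tested Actl6b probes gave 0.06, 0.27 and 0.28.

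Among the other genes with the smallest p and a higher level in KO were Fscn1, an actin-bundling protein, at 0.65 ± 0.12, and Mrps17, a mitochondrial ribosomal protein, at 0.63 ± 0.12. Fn3krp, a kinase that removes sugar adducts from proteins, had 0.97 ± 0.20. Fn3krp read 8.26, 7.57, 8.19 and 7.85 in KO and 6.97, 7.21 and 6.92 in WT, with no overlap. The Wnt receptor gene Fzd2 read 7.61, 7.63, 7.85 and 8.04 in KO and 7.07, 7.41 and 7.04 in WT, a difference of 0.60 ± 0.14. Noggin, the secreted BMP antagonist encoded by Nog, had 0.60 ± 0.14, the CUE-domain gene Cuedc1 had 0.74 ± 0.18, and Klhl12, an adaptor of a cullin ubiquitin ligase, had 0.50 ± 0.12. The limma adjusted p of these 7 genes ran from 0.214 to 0.817. With median scaling the differences of Fn3krp and Cuedc1 were 0.45 and 0.33, and both passed the threshold (adjusted p = 0.000625 and 0.00113).

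On the lower side of KO, below Grn, stood Vti1b, a SNARE protein of late endosomes, at -0.54 ± 0.11, and Rbm28, a nucleolar RNA-binding protein, at -0.70 ± 0.14. Vti1b read 11.77, 11.89, 11.83 and 11.93 in KO and 12.40, 12.23 and 12.47 in WT, with no overlap. Rbm28 read 9.28, 9.34, 9.51 and 9.75 in KO and 10.05, 10.21 and 10.22 in WT, also with no overlap. The orphan receptor gene Gpr162 had -0.63 ± 0.15, the dynein light chain gene Dynll2 -0.71 ± 0.18, and Cybc1, which encodes a chaperone of the phagocyte NADPH oxidase, -0.82 ± 0.21. The cell cycle inhibitor gene Cdkn1b had -0.44 ± 0.11 and the zinc finger gene Rbak -0.40 ± 0.10. The limma adjusted p of these 7 genes ran from 0.267 to 0.863. Second tested probes gave 0.06 for Gpr162, -0.17 for Vti1b and -0.30 for Rbak.

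Dennd2a, whose product activates Rab GTPases, spread widely within KO. It read 7.18, 7.36, 8.53 and 9.05 in KO, 8.99, 9.18, 9.42 and 8.56 in Het, and 9.17, 9.43 and 9.36 in WT. KO replicates 2 and 3 lay more than 1 log2 unit below the other KO arrays, and KO replicate 5 lay near the WT arrays. The difference was -1.34 ± 0.35 (limma adjusted p = 0.863). Rapgefl1, named for its likeness to Rap exchange factors, read 9.51, 9.86, 10.83 and 9.55 in KO and 10.74, 10.94 and 10.98 in WT. Its KO replicate 4 lay within the WT range, and without that array the difference was -1.25 (adjusted p = 0.0165), against -0.91 ± 0.24 (adjusted p = 0.884) with it. A second tested Rapgefl1 probe gave 0.33, the opposite direction.

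**Figure D2:**
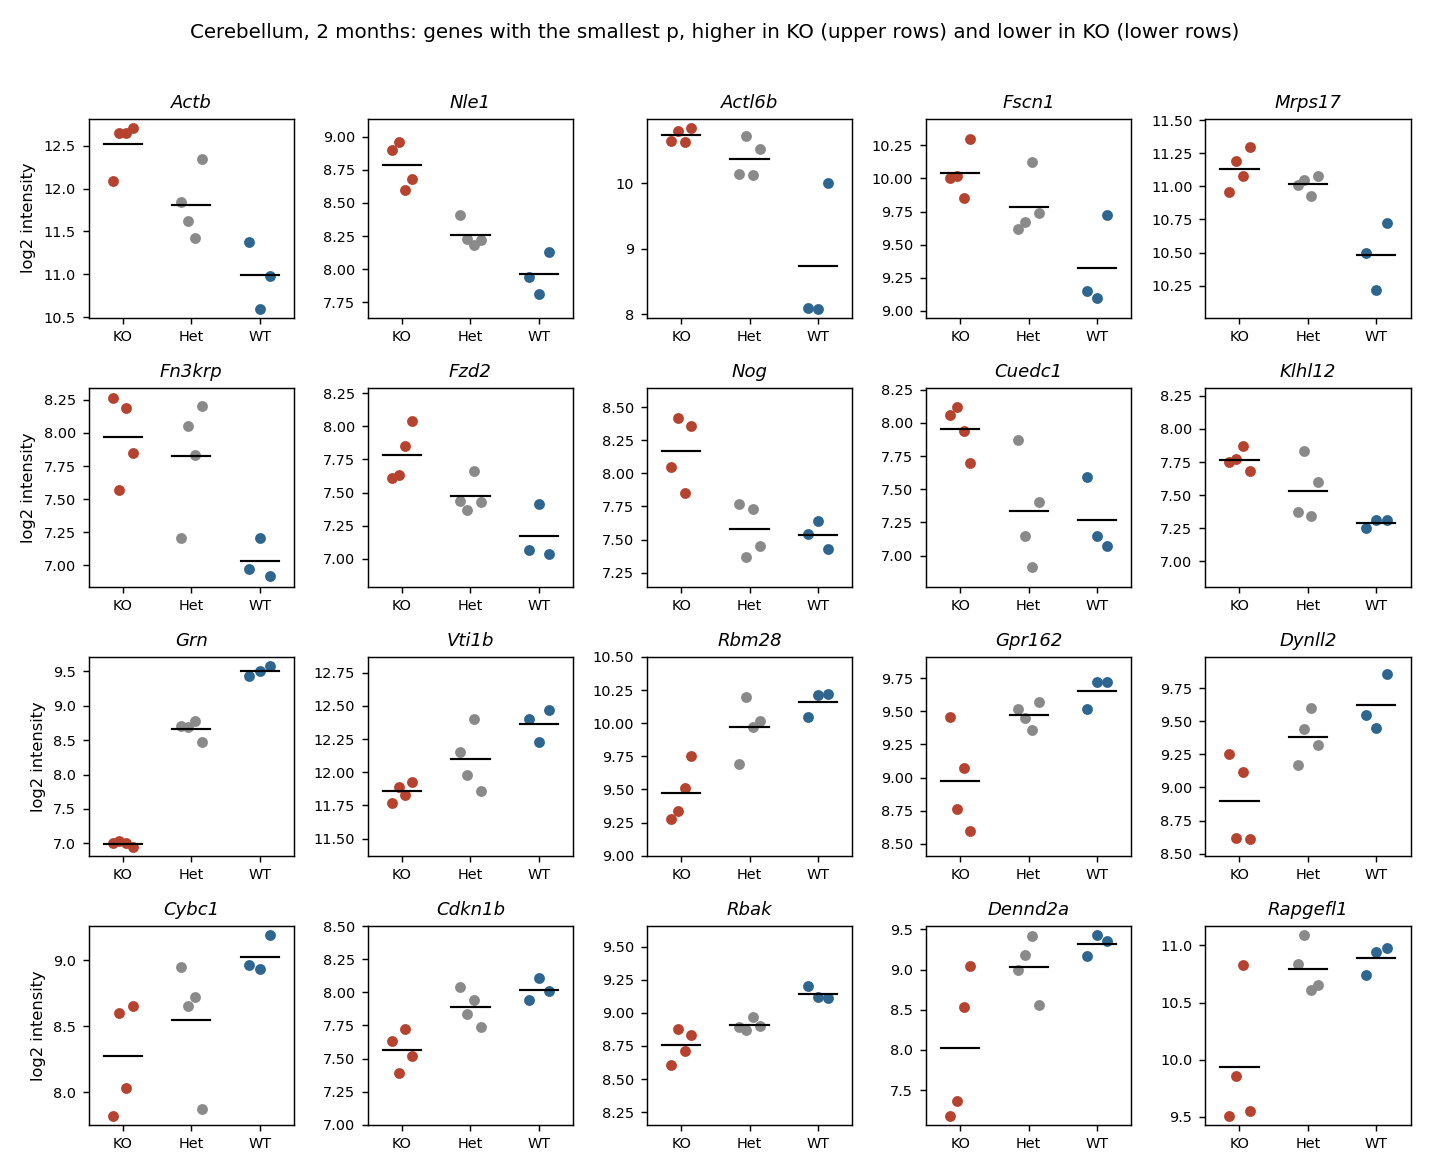
Each panel is a gene, with log2 intensity on the vertical axis and a point per array in the KO (n = 4), Het (n = 4) and WT (n = 3) groups. Grn forms 3 separate levels, the WT arrays of Actl6b fall at 8.09, 8.10 and 10.01, and the KO arrays of Dennd2a run from 7.18 to 9.05.

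Microglia are the cells in which later loss of progranulin is best known. Of 16 tested genes on the list of activated microglia, 0 passed the adjusted threshold, 4 had an unadjusted p under 0.05 and were higher in KO, and 0 were lower at that p, where 3.45% of all tested genes had such a p. Their median KO minus WT difference was 0.13 on the log2 scale, against 0.002 over the 9076 genes. By sign alone 12 were higher and 4 lower. The median was 0.05 without WT replicate 2 and 0.07 without KO replicate 4. In bulk tissue, the number of cells of a type and the RNA per cell cannot be told apart. The list was chosen with earlier results of these data known, so its share beside that of all genes is not an independent test.

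The 4 were Lyz2, Tyrobp, Lyz1 and Csf1, of which Lyz2, Tyrobp and Lyz1 had been named by earlier results of these data. Lyz2, a lysozyme of myeloid cells, read 8.84, 8.62, 8.74 and 8.81 in KO, 8.11, 8.17, 8.41 and 8.01 in Het, and 8.45, 8.40 and 8.28 in WT. Every KO array lay above every Het and WT array. The KO minus WT difference was 0.37 ± 0.12 (limma adjusted p = 0.999, unadjusted 0.00801) and the KO minus Het difference was 0.57 ± 0.11 (adjusted p = 0.613). The near-identical paralog Lyz1 read 10.10, 9.59, 10.08 and 10.03 in KO and 9.87, 9.43 and 9.32 in WT, where KO replicate 3 lay within the WT range. Its difference was 0.43 ± 0.16, and the probes of these paralogs may share transcripts.

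Tyrobp, the signalling adaptor of TREM2, read 7.59, 7.36, 7.70 and 7.65 in KO and 7.06, 7.42 and 7.11 in WT, a difference of 0.38 ± 0.13 (unadjusted p = 0.0112, limma adjusted p = 0.999). KO replicate 3 overlapped the WT arrays. Csf1, the growth factor of microglia, had 0.32 ± 0.13, and the receptor gene Trem2 had 0.25 ± 0.16 with overlapping groups. Gpnmb, a membrane glycoprotein of lipid-laden phagocytes, had 7.44, 7.44, 7.76 and 7.93 in KO and 7.78, 7.44 and 7.87 in WT. The groups overlapped, and the difference was -0.09 ± 0.14. Lgals3, the galectin of damaged lysosomes and phagocytes, gave 0.22 ± 0.14.

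Homeostatic microglia genes numbered 13 tested, of which 0 passed the adjusted threshold and 1, Fcer1g, was higher at an unadjusted p under 0.05. Their median difference was 0.05. Fcer1g, the Fc receptor gamma chain, read 8.72, 7.98, 8.74 and 8.66 in KO and 8.56, 7.94 and 6.85 in WT, and the groups overlapped. The difference was 0.79 ± 0.31, and 0.23 without WT replicate 3. The defining microglial genes Cx3cr1, P2ry12 and Tmem119 had differences of 0.13 ± 0.20, -0.29 ± 0.39 and -0.10 ± 0.16. The summed intensity of the homeostatic list was 3799 to 5286 in KO and 4112 to 4799 in WT.

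Complement genes, which mark synapses and debris for clearance by microglia, showed 0 adjusted calls among 8 tested, with a median difference of 0.10, which was -0.03 without WT replicate 3. C1qa, C1qb and C1qc, the subunits of C1q, had 0.12 ± 0.10, -0.09 ± 0.15 and 0.14 ± 0.17. C4b had 0.28 ± 0.16. Cd59a, which blocks the membrane attack complex, read 11.52, 10.02, 11.33 and 11.04 in KO and 11.85, 11.33 and 11.82 in WT, a difference of -0.68 ± 0.31 at an unadjusted p of 0.0453. KO replicate 3 was the lowest array, and KO replicate 2 overlapped the WT values. Cytokine and NF-kB target genes had 0 calls at either p among 6 tested, with a median of 0.02. The interferon and antigen presentation list had 0 adjusted calls among 16 and a median of 0.007.

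Lysosomal genes are the group closest to the known place of action of progranulin. Of the 44 tested besides Grn, 0 passed the adjusted threshold, 0 were higher and 2 were lower at an unadjusted p under 0.05, against 3.45% of all tested genes, and the median difference was 0.06. By sign 31 were higher and 13 lower, and the median was 0.01 without KO replicate 4 and 0.03 without WT replicate 2. The 2 lower ones were Laptm4a, a lysosomal membrane protein, at -0.25 ± 0.10 and Lipa, the lysosomal acid lipase, at -0.30 ± 0.14. Laptm4a read 10.91, 10.76, 10.87 and 10.74 in KO and 11.02, 11.09 and 11.09 in WT, without overlap.

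Prosaposin, encoded by Psap and a partner of progranulin in lysosomal transport, had 13.93, 14.11, 13.91 and 14.06 in KO and 13.87, 13.91 and 13.98 in WT, a difference of 0.06 ± 0.07. The lysosomal membrane genes Lamp1 and Lamp2 had 0.21 ± 0.12 and 0.29 ± 0.15. Further tested Lamp2 probes gave 0.16, 0.09 and 0.04. Lamp1 read 11.88, 11.89, 11.92 and 12.29 in KO and 11.79, 11.67 and 11.82 in WT, at an unadjusted p of 0.0915. Every KO array lay above every WT array, where 4.46% of all tested probes had no overlap either way. Tmem106b, a lysosomal membrane protein and risk gene of frontotemporal dementia, had 0.08 ± 0.18, and its sign turned in 3 alternative settings. The summed intensity of the lysosome list was 80239 to 86494 in KO and 75754 to 82952 in WT. Autophagy genes had 0 calls at either p among 18 tested and a median of 0.02.

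Astrocyte and Bergmann glia genes had 0 adjusted calls among 15, with a median of -0.05. Aqp4, the water channel of astrocyte endfeet, read 12.66, 12.81, 12.72 and 12.63 in KO and 12.92, 13.26 and 12.87 in WT, a difference of -0.29 ± 0.11 (unadjusted p = 0.0217, limma adjusted p = 0.999). All KO arrays lay below all WT arrays. The reactive astrocyte list had 0 calls at either p among 13 and a median of 0.155, which was 0.04 to 0.14 with any 1 of the 7 arrays left out. Gfap, the intermediate filament that rises in gliosis, read 8.77, 8.21, 9.15 and 8.02 in KO and 8.28, 8.12 and 8.36 in WT. KO replicates 2 and 4 were high and KO replicates 3 and 5 were not, which gave 0.32 ± 0.24.

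Neuronal lists of the cerebellum had medians near 0. Purkinje cell genes had 0 adjusted calls among 12 and a median of 0.08. Icmt, a methyltransferase of prenylated proteins, was the 1 member at an unadjusted p under 0.05, at 0.30 ± 0.14. Granule neuron genes, 18 tested, had 0 calls at either p and a median of 0.000, and cerebellar interneuron genes, 11 tested, had 0 calls at either p and a median of 0.02. Of 15 glutamatergic synapse genes 0 passed, with a median of -0.01. The AMPA receptor gene Gria2 read 12.28, 12.42, 12.27 and 12.40 in KO and at most 12.16 in WT, a difference of 0.24 ± 0.11 without overlap (unadjusted p = 0.0405, limma adjusted p = 0.999).

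Oligodendrocyte and myelin genes had 0 calls at either p among 11, 2 of them higher and 9 lower by sign, with a median of -0.11. It was -0.02 without WT replicate 3 and -0.03 without KO replicate 3. Their summed intensity was 60358 to 78539 in KO and 67288 to 80074 in WT. Endothelial and pericyte genes had 0 adjusted calls among 17 and a median of -0.10. The pericyte gene Rgs5 had -0.70 ± 0.31, and it was -1.13 without WT replicate 1 and -0.295 without WT replicate 3. Genes of meninges and fibroblasts had 0 calls at either p among 15 and a median of -0.12, which was -0.197 without WT replicate 3 and -0.001 without WT replicate 1. Their summed intensity was 13510 to 17572 in KO and 14381 to 16436 in WT. Choroid plexus genes had 0 calls at either p among 12 and a median of 0.02.

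Blood genes were few, with 4 tested, 0 adjusted calls and a median of -0.165, which was -0.333 without WT replicate 2 and -0.022 without WT replicate 1. Their summed intensity was 850 to 1561 in KO and 1282 to 2141 in WT. The neutrophil gene S100a8 read 8.48, 7.55, 8.09 and 7.89 in KO and 9.20, 8.61 and 8.26 in WT. Only KO replicate 2 reached into the WT range. Brainstem genes, 13 tested, had 0 calls at either p and a median of -0.005, which was -0.336 without WT replicate 2 and 0.216 without WT replicate 3. Their summed intensity varied widely, from 3441 to 9871 in KO and from 3668 to 7961 in WT. Tph2, the enzyme of serotonin synthesis in raphe neurons, read 8.92, 7.31, 8.37 and 7.62 in KO and 8.43, 7.22 and 9.96 in WT. The part of this spread in the other results was not tested.

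Marker lists of other regions are given to describe the dissection of the kept arrays. Cortex markers had 0 adjusted calls among 7 and a median of -0.08. The neuronal transcription factor gene Mef2c had -0.51 ± 0.21 by its probe with the smallest p. Its brightest probe, which the list counts, gave -0.43, and another tested probe gave 0.09. The summed intensity of the cortex markers was 6498 to 7252 in KO and 7095 to 8044 in WT. Hippocampus markers had 0 adjusted calls among 7 and a median of -0.13, which was -0.324 without KO replicate 4 and -0.036 without KO replicate 3. The list held Nnat, a small membrane protein of developing neurons, at -0.43 ± 0.15. Nnat read 8.68, 8.14, 8.85 and 8.43 in KO and 9.20, 8.88 and 8.92 in WT, without overlap. Another tested Nnat probe gave 0.03. The striatum, thalamus and hypothalamus list had 0 adjusted calls among 11 and a median of -0.006. Forebrain and cerebellum region markers, with 10 and 11 tested, had 0 calls at either p and medians of 0.002 and 0.08. The region check used these same lists, so their medians are no independent check. Oligodendrocyte precursor genes had 0 calls at either p among 6 and a median of 0.02, and sex-linked genes had 0 adjusted calls among 8 and a median of -0.005.

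**Figure D3:**
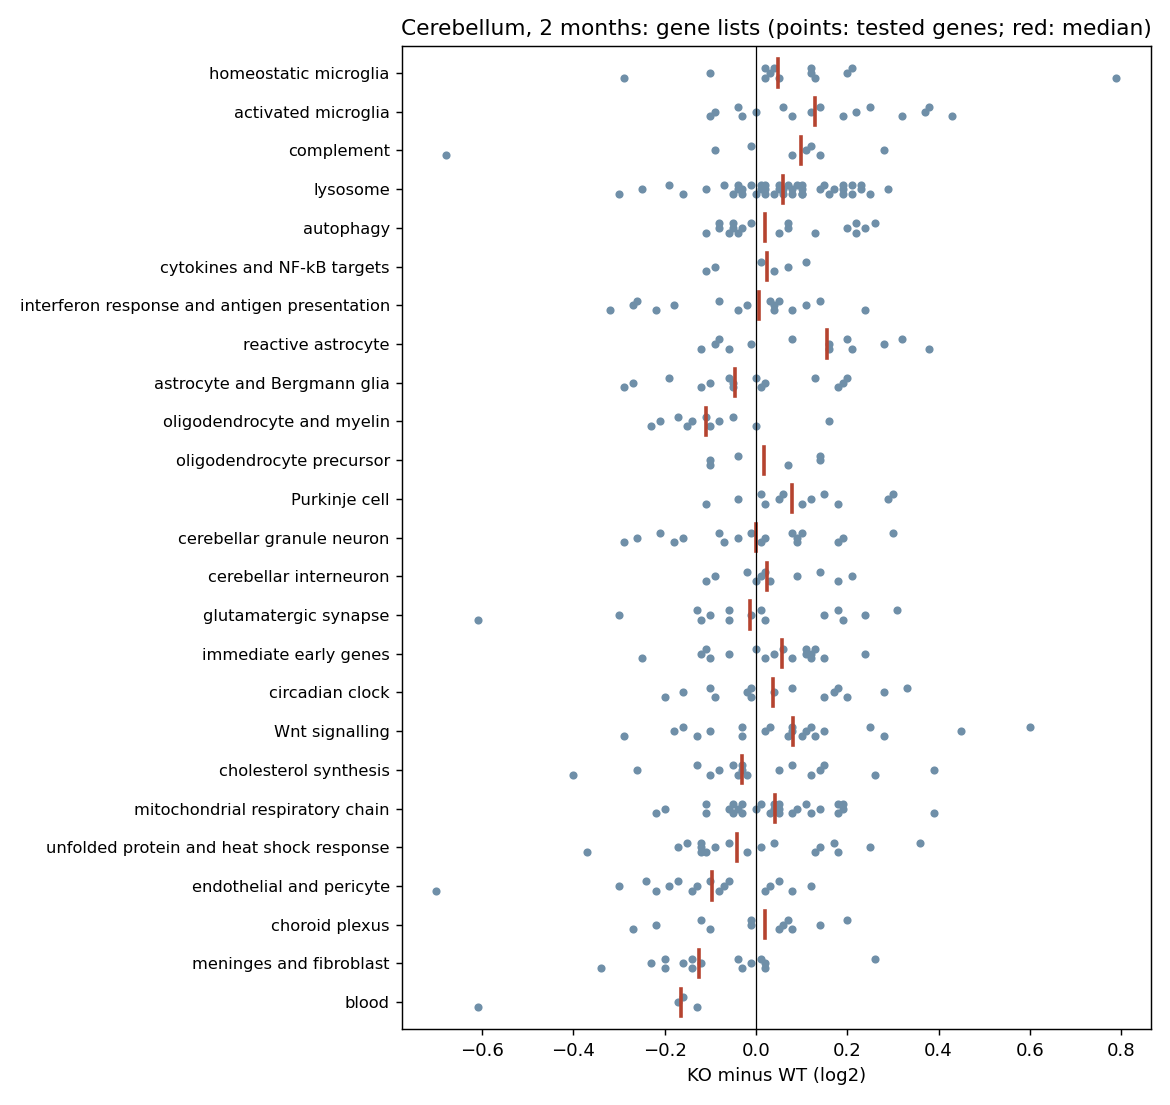
Each row is a gene list, each point a tested member at its KO minus WT difference on the log2 scale in 2-month cerebellum, and the bar the median of the list. The medians run from -0.165 for the 4 blood genes to 0.155 for reactive astrocyte genes, with activated microglia at 0.13 and meninges and fibroblast at -0.12.

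Lists of other pathways had no adjusted call either. Wnt signalling genes, in which Fzd2 sits, had 0 adjusted calls among 21, 1 at an unadjusted p under 0.05 and a median of 0.08. Immediate early genes, the fast response to neuronal activity, had 0 calls at either p among 17. Among 15 clock genes the nuclear receptor gene Nr1d1 was the 1 at an unadjusted p under 0.05, at 0.28 ± 0.12. Cholesterol synthesis genes had a median of -0.03 over 17, with Dhcr7, the last enzyme of the pathway, at 0.39 ± 0.14. The respiratory chain list had a median of 0.04 over 28. The unfolded protein and heat shock list had -0.04 over 18, with the stress transcription factor gene Atf4 at -0.37 ± 0.17. None of these genes passed the adjusted threshold.

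Genes near Grn are of interest in a knockout, because a stretch of the chromosome around the engineered allele can come from another strain. By the gene order of the GRCm38.p6 reference, 100 measured genes surround Grn on chromosome 11, 50 on each side, and 68 were tested. Of these 0 passed the adjusted threshold and 6 had an unadjusted p under 0.05, 3 higher and 3 lower, which is 8.82%, against 5.80% on the rest of chromosome 11, 1.57% to 5.31% on the other chromosomes and 3.45% over all genes. Fzd2, the third measured gene from Grn, had the smallest p of the 6. Rdm1, a DNA repair gene 22 measured genes away, read 8.36, 8.59, 8.57 and 8.60 in KO and 8.86, 8.88 and 8.93 in WT, a difference of -0.38 ± 0.10 without overlap. Map3k3, a kinase of the MAP kinase cascade, had 0.44 ± 0.14, the neighbour Fam171a2 had -0.31 ± 0.13 and the homeobox gene Meox1 had 0.28 ± 0.12. Myl4, the myosin light chain gene that is the sixth, had -0.28 ± 0.13. Lsm12, 9 measured genes away, was counted by its brightest probe and is not among the 6. Another of its probes, the one with the smallest p, had a KO minus WT difference of 0.44 ± 0.12 (limma adjusted p = 0.884). The brightest probe gave 0.10 and a further tested probe 0.21.

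Several of the genes named by p lay on few chromosomes. Grn, Fzd2, Nle1, Fn3krp, Nog, Cuedc1, Dynll2, Cybc1 and Rapgefl1 are on chromosome 11. Fzd2 lay 3 measured genes from Grn and Rapgefl1 lay 119 away. Nog, Cuedc1, Dynll2, Cybc1, Fn3krp and Nle1 lay 239 to 324 measured genes from Grn. Actb, Actl6b, Fscn1, Mrps17 and Rbak are on chromosome 5, where Actb and Fscn1 are next to each other among the measured genes. Rbm28, Gpr162, Cdkn1b and Dennd2a are on chromosome 6. Besides Grn, chromosomes 11, 5 and 6 held 792, 589 and 467 of the 9076 tested genes. On chromosome 11 as a whole, 48 of 792 tested genes had an unadjusted p under 0.05, or 6.06%, 17 of them higher and 31 lower in KO. The share was 3.57% on chromosome 5 (21 of 589) and 3.85% on chromosome 6 (18 of 467), near the 3.45% over all genes. Chromosome positions and values are given here side by side, and the part of the strain background was not tested.

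Cortex and hippocampus of the same age, largely of the same animals, showed where the cerebellum stood. After the region checks the fit held 5 KO and 6 WT arrays of cortex, and 3 KO and 3 WT arrays of hippocampus. KO minus WT called 9 probes in cortex, or 0.07%, and 6 in hippocampus, or 0.0467%. Among the 6 was Slc6a3 at 2.52 ± 0.48 (limma adjusted p = 0.042), beside 0.06 ± 0.43 in cerebellum. Grn was -2.48 ± 0.08 in cortex and -2.75 ± 0.12 in hippocampus. Fzd2 rose by 0.78 ± 0.09 in cortex and 0.85 ± 0.13 in hippocampus (limma adjusted p = 2.27e-05 and 0.00305), beside 0.58 ± 0.12 in cerebellum in the same fit. Lsm12, an RNA-binding protein gene near Grn, rose by 0.56 ± 0.09 in cortex and 0.62 ± 0.12 in hippocampus, beside 0.43 ± 0.11 in cerebellum. Nle1 and Mrps17 rose in cortex by 0.59 ± 0.10 and 0.53 ± 0.11, and Stac2, Krt12 and Rapgefl1 had -0.51, -1.44 and -1.27 there, also past the threshold. The WT values of Mrps17 were split by animal, as given below.

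The test of the difference between regions called 0 of 12848 probes, 0%, with 3.12% at an unadjusted p under 0.05, 189 of them higher and 212 lower. Myl4 had the smallest p. It fell by 1.18 ± 0.15 in cortex and by 1.29 ± 0.21 in hippocampus, whereas its cerebellar difference was -0.29 ± 0.19. In cerebellum Myl4 read 7.84, 7.67, 7.76 and 7.83 in KO and 8.11, 7.95 and 8.03 in WT. The cerebellar effect minus the mean effect of the other regions was 0.94 ± 0.22 (unadjusted p = 0.000258, limma adjusted p = 1). For Lyz2 the difference between regions was -0.33 ± 0.31, so the cerebellar value could not be set apart from those of 0.66 ± 0.21 in cortex and 0.67 ± 0.29 in hippocampus. Actb had 1.40 ± 0.49 in cerebellum, 0.91 ± 0.39 in cortex and 0.09 ± 0.55 in hippocampus in this fit, a difference between regions of 0.90 ± 0.58.

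Some genes kept a level by animal in every region sampled. Actl6b averaged 10.44 to 11.16 over regions in each KO animal. In WT it averaged 8.25, 8.30 and 8.01 in 3 animals, and 10.41, 11.25 and 11.11 in the other WT animals. The 3 low WT animals lay apart from every KO animal, and WT cerebellum replicates 1 and 2 came from them. For Mrps17 the same 3 WT animals averaged 10.62, 10.57 and 10.45, and the other WT animals 10.98, 11.18 and 10.97. KO animals averaged 10.97 to 11.32 for Mrps17. Dennd2a averaged 7.15 and 7.28 in the KO animals of cerebellar replicates 2 and 3, against 8.59 to 9.51 in the other KO animals and 8.65 to 9.50 in WT animals. Rbm28 averaged 9.22 to 10.07 in KO animals and 9.62 to 10.22 in WT animals, so the genotypes overlapped.

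**Figure D4:**
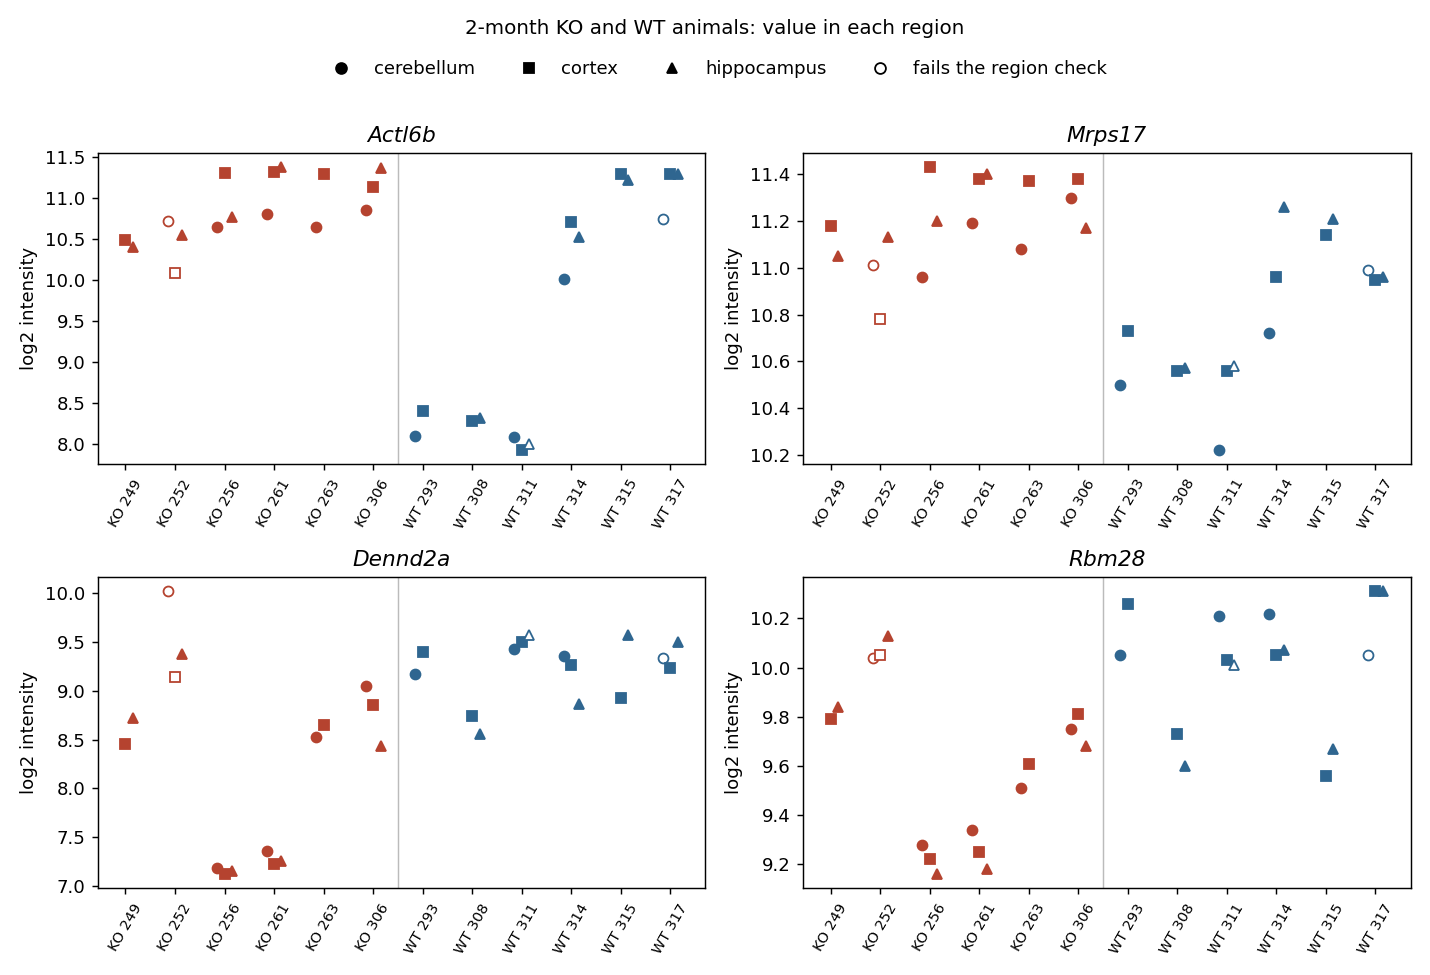
Each panel is a gene, with log2 intensity on the vertical axis and the 2-month animals along the horizontal axis, KO animals left of WT animals, and a point for each region. Points of 1 animal lie together for Actl6b, where 3 WT animals average 8.01 to 8.30, and for Dennd2a, where 2 KO animals average 7.15 and 7.28. The same 3 WT animals average 10.45 to 10.62 for Mrps17, and the averages of KO and WT animals overlap for Rbm28.

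The later ages give the other comparison. At 9 months the 3 WT arrays were male by label, and the KO arrays were 2 males and 1 female by label. Xist read 9.08 in KO replicate 2, labelled male, and 9.45 in KO replicate 3, labelled female. Sex was thus not balanced between the genotypes at 9 months. In cerebellum at 9 months 7 probes were called, or 0.0545%. Besides Grn at -2.71 ± 0.14 they were 2 probes of Lyz2, 1 each of Lyz1, Lgals3 and Gpnmb, and 1 without a gene symbol. In 1 fit over the 3 ages, Lyz2 had differences of 0.38 ± 0.16 at 2 months, 0.67 ± 0.22 at 6 months and 1.72 ± 0.18 at 9 months (limma adjusted p at 9 months = 4.96e-06). Gpnmb had -0.08 ± 0.28, 0.59 ± 0.38 and 1.94 ± 0.30 at these ages (adjusted p at 9 months = 0.00274). Lgals3 had 0.23 ± 0.15, -0.08 ± 0.20 and 1.03 ± 0.16, and Lyz1 had 0.43 ± 0.22, 0.92 ± 0.31 and 1.85 ± 0.24. At 2 months none of the 4 passed the threshold. Without KO replicate 2 of 9 months, a fit added after the data were seen, 3 probes were called at that age, or 0.0233%. They were Grn, Lyz2 at 1.71 ± 0.21 (limma adjusted p = 0.000141) and Lyz1 at 1.78 ± 0.28 (adjusted p = 0.00822). Gpnmb then had 1.45 ± 0.28 and Lgals3 0.98 ± 0.18 at 9 months, and both calls were lost (adjusted p = 0.0663 and 0.056).

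Whether the effect at 2 months differed from the mean effect at 6 and 9 months was tested over 28 arrays. This called 0 of 12848 probes, 0%, with 906 at an unadjusted p under 0.05, or 7.05%. The difference for Lyz2 was -0.82 ± 0.21 and for Gpnmb -1.35 ± 0.37 (limma adjusted p = 0.66 for both). Actb went the other way, with 1.54 ± 0.23 at 2 months, 0.69 ± 0.31 at 6 months and -0.23 ± 0.25 at 9 months, a difference of 1.31 ± 0.30 (adjusted p = 0.66). Klhl12 had the smallest p of this test, with 0.50 ± 0.12 at 2 months, -0.41 ± 0.16 at 6 months and -0.05 ± 0.13 at 9 months (adjusted p of the difference = 0.567). Set against 9 months alone, a test added after the data were seen, 0 of 12848 probes were called, 0%, and 3.11% had an unadjusted p under 0.05, with Lyz2 at -1.34 ± 0.24 (adjusted p = 0.101). Without KO replicate 2 of 9 months both tests again called 0 probes, and Lyz2 had -1.33 ± 0.26 against 9 months alone (adjusted p = 0.311). The 6- and 9-month arrays were on other slides and had median intensities of 200.8 to 352, so age and slide cannot be told apart, and KO at 6 months had 2 arrays. Those 2 were male and the 3 WT arrays of that age female, so sex and genotype cannot be told apart within 6 months, and the sex term came from the other groups. At an unadjusted p under 0.05 there were 2200 probes at 6 months, against 235 at 9 months.

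The list medians followed by age in the same fit were 0.12, 0.31 and 0.23 for activated microglia at 2, 6 and 9 months, with 0, 0 and 4 members called higher. For complement genes they were 0.095, 0.38 and 0.46, with 0 called at each age. The reactive astrocyte list had 0.13, 0.12 and 0.30, and Gfap had 0.35 ± 0.27, 0.09 ± 0.37 and 1.37 ± 0.30 (limma adjusted p at 9 months = 0.153). The lysosome list had medians of 0.06, 0.12 and 0.07. Markers of other cells moved at 6 months too, with medians of -0.538 for cerebellum region markers, -0.395 for Purkinje cell genes, -0.286 for granule neuron genes and 0.339 for homeostatic microglia genes. Their part in the 6-month medians was not tested. Without KO replicate 2 of 9 months the medians at 9 months were 0.173 for activated microglia, with 2 members called higher, and 0.298 for complement, 0.198 for reactive astrocyte and 0.048 for lysosome genes. Gfap then had 1.10 ± 0.32. All of these lists were chosen with earlier results of these data known.

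**Figure D5:**
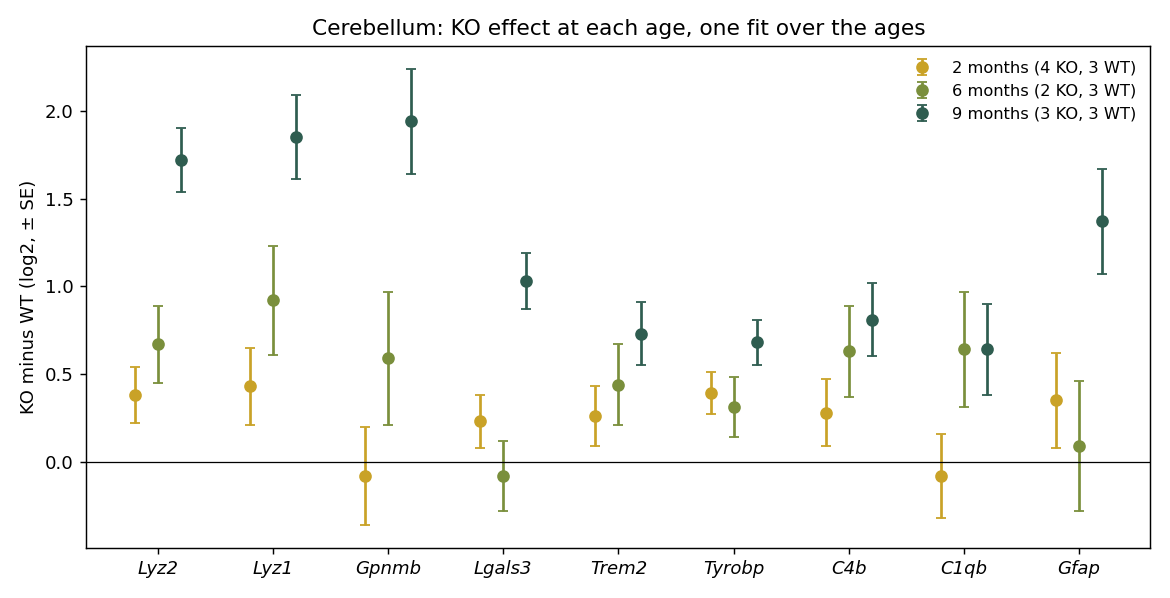
The vertical axis is the KO minus WT difference of cerebellum on the log2 scale with its SE, from 1 fit over the ages, for each named gene at 2, 6 and 9 months. Lyz2 stands at 0.38, 0.67 and 1.72, and Gpnmb at -0.08, 0.59 and 1.94.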

How the data were processed

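The authors deposited linear bead-summary intensity values from Illumina mouse arrays, not normalized between arrays. BeadStudio, version not stated, appears in the submitters' processing notes. A deposited series matrix held log2 values equal to the quantile-normalized log2 of those intensities (largest difference 4.97e-14). All 25697 probes of the 99 arrays were taken to log2 and quantile-normalized, and 12848 probes with a mean above the 50th percentile (7.27) in the 11 fitted arrays were tested. Symbols were given to 23978 probes and none to 1719. Detection p-values were not used here.

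The fit used limma 3.58.1 in R 4.3.3 (lmFit, eBayes with trend) on KO, Het and WT cerebellum with sex as covariate and 7 residual degrees of freedom. Adjusted p-values are two-sided, by Benjamini-Hochberg over all tested probes, with a threshold of 0.05. An array failed the region check when it lay more than 0.25 of the way to the other region's median, which took out 7 arrays of the series, and a like check between cortex and hippocampus took out 17 more. The region fit (33 arrays) had the animal as a random block (statmod 1.5.0). The age fit held 28 arrays. At 9 months KO replicate 2 was also left out in an added fit.

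The 32 lists, each gene counted once by its brightest tested probe, are described by counts and medians. The members and lists were chosen with earlier results of these data known. Genes named were Grn, the 10 with the smallest p each way, up to 4 members of each list by p, genes named in earlier results, and called genes of other regions and ages. Psap, Lamp1, Lamp2, Tmem106b, Cx3cr1, P2ry12, Tmem119, Lgals3 and the genes near Grn were added after their values were seen. A named gene goes by its probe with the smallest p. Alternatives were median scaling, quantile normalization over 2-month arrays, normexp (offset 50), the series matrix, no filter or a 75th-percentile filter, no sex covariate, slide blocks, a replicate block, array weights, other sets of arrays, and each replicate left out.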

Additional observations from a re-analysis of the deposited data

Results flagged for a closer look

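In groups of 4 arrays, an array stood apart from the other 3 in 13 of 162 groups of named genes, with a gap to its nearest neighbour that exceeded Dixon's critical share of the range. Chance flags about 1 in 20 groups, and no explanation was tested. Among KO arrays, replicate 2 was low for Actb at 12.09 (others 12.65 to 12.71) and for Rdm1 at 8.36 (8.57 to 8.60). KO replicate 3 was low for Lyz1 at 9.59 (10.03 to 10.10) and for Fcer1g at 7.98 (8.66 to 8.74). KO replicate 4 was high for Dusp6, a MAP kinase phosphatase gene, at 8.11 (7.70 to 7.75) and low for Nr1d1 at 9.44 (9.68 to 9.72). KO replicate 5 was high for Lamp1 at 12.29 (11.88 to 11.92).

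Among Het arrays, replicate 1 was low for the mitochondrial ribosomal gene Mrps23 at 9.56 (10.05 to 10.12) and high for P2ry12 at 8.55 (7.44 to 7.58). Het replicate 2 was low for the autophagy gene Gabarapl2 at 7.26 (7.36 to 7.37) and high for Lamp2 at 11.15 (10.83 to 10.86). Het replicate 3 was high for Rdm1 at 8.79 (8.55 to 8.56) and for Fcer1g at 8.55 (7.81 to 7.82).

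The WT cerebellum array that was left out is labelled male. Its level of Xist, the transcript of the inactive X chromosome of females, was 8.43, against 6.80 to 7.32 in the fitted male arrays, and its level of the Y-linked Eif2s3y was 8.99. The array entered no comparison except the setting that puts both left-out arrays back.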

How the results depend on the processing

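Grn passed the threshold in all 21 alternatives that tested it, with KO minus WT between -3.04 (normexp) and -1.58 (median scaling). The stricter filter left its probe untested, so 0 probes were called in each of the 3 genotype contrasts there. Other counts of KO minus WT calls were 15 with median scaling (11 higher, 4 lower), 2 with quantile normalization over the 2-month arrays, 5 with no filter, 4 without sex, 5 with slide as a fixed block, 3 with slide as a random block, 2 with only KO and WT arrays without sex, and 2 with all cerebellum arrays. Leaving out 1 replicate gave 1 to 3 calls: 3 without KO replicate 2, and 2 without KO replicate 4, WT replicate 1 or WT replicate 3. KO minus Het gave 11 calls with median scaling, 5 with slide as a fixed block and 1 to 2 with a replicate left out. Het minus WT gave 4 with median scaling, 2 with no filter, without sex or with array weights, 0 with slide as a fixed block or with the 2 left-out arrays, and 0 to 1 with a replicate left out, none without WT replicate 1 or WT replicate 2 and a probe other than Grn without WT replicate 3. The age difference gave 2 calls with median scaling and 0 to 1 with a replicate left out (1 without KO replicate 2, 0 without KO replicate 2 of 9 months), and the region difference 0 in all 20 alternatives. KO and WT shared 2 replicate numbers, whose deviations correlated at 0.000 and -0.199. The numbers follow the order of the animal numbers within each group and carry no pairing, and 2 correlations could not test for one. The replicate block gave 7 KO minus WT calls (2 higher, 5 lower), with 325 probes at an unadjusted p under 0.05, 4 KO minus Het calls and 0 Het minus WT calls (Grn at -0.79, adjusted p = 0.655). Signs of small differences turned as follows: Gpnmb was 0.220 with the 2 left-out arrays and -0.186 to 0.011 with a replicate left out. C1qb was 0.007 with median scaling, 0.002 with slide as a fixed block, 0.030 with the left-out arrays and -0.191 to 0.029 with a replicate left out. For both the turn came without KO replicate 3. Tmem106b was -0.153 with slide as a fixed block, -0.088 with the replicate block and -0.045 (without KO replicate 4) to 0.277 with a replicate left out. P2ry12 was 0.065 with slide as a fixed block, 0.160 with the replicate block and -0.747 to 0.335 (without WT replicate 1) with a replicate left out. Icmt was -0.084 with the left-out arrays, and with a replicate left out Cx3cr1 was -0.034 (without KO replicate 2) to 0.319, Tph2 -1.137 to 0.209 and Stac2 -0.333 to 0.020 (both highest without WT replicate 3). The cause of these shifts was not tested. Dim probes such as that of Grn in KO limit the size of a fold, since background sets their level.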
